A study of Mus musculus with 4 samples.

Results

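Actin filaments assemble from monomers whose supply is set by small binding proteins, and 10 genes of this machinery were followed on arrays of mouse embryonic stem (ES) cells with and without Snai1, the gene of the repressor Snail. They are 3 actins (Actb, Actg1 and Acta2), the profilins Pfn1 and Pfn2, the cofilins Cfl1 and Cfl2, thymosin beta 10 (Tmsb10), the cyclase-associated protein Cap1 and the crosslinker alpha-actinin 1 (Actn1). These 10 of the 18193 genes with a symbol of their own were covered by 25 of the 45037 probe sets outside the Affymetrix controls, and every probe set assigned to exactly 1 of these genes was taken. The genes were chosen by name, with the knockout minus control differences of these same arrays already known, so those differences are given as a description, with no p-value for any of the 10; how many pass a threshold is counted only beside the share of all features that do.

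The samples were 2 arrays of Snai1 knockout ES cells (titles KO.ES) and 2 arrays of control ES cells (titles F/F.ES, a mark that the labels do not explain). All were mouse ES cells grown with leukaemia inhibitory factor and on feeder cells, without further treatment, and the labels name no strain, sex or allele. The labels call the arrays of a group biological replicates without saying whether they came from separate cultures or clones, so p-values measure only the spread between these arrays, which may be technical. Total RNA was labelled with biotin by a protocol that starts at the 3' end of transcripts and was hybridised to Affymetrix arrays. The source name of the control samples also holds the words knock out, so each difference takes its sign from the titles and the genotype field.

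Values are log2 expression values per probe set, on which a difference of 1 is a doubling, and their number per group limits the precision. The targeted gene Snai1 lay at 3.79 and 4.04 (knockout) against 4.41 and 4.69 (control), all within the range of 2.91 to 4.77 of 27 control probe sets for Bacillus transcripts, so its level does not check the labels. The 8 markers of ES cells were all above that range, between 9.09 and 14.25. Of these markers, 4 (Pou5f1, Nanog, Utf1 and Esrrb) passed as higher in the knockout in the fit described below for genes outside the family, against 1.98% of all genes. The other 4 (Sox2, Zfp42, Tdgf1 and Dppa5a) differed by -0.02 to 0.14. The mean level of 23 measured fibroblast markers, the usual feeder cells, was 7.69 (replicate 1) and 6.98 (replicate 2) for the knockout, against 7.89 and 7.21 for the control. Of these markers only Fap lay within the Bacillus range on all arrays, and 0 passed the limma test in that fit. Their mean difference was -0.21, with 10 of the 23 above in the knockout. Single markers ranged from -1.24 (Prrx1, without overlap) to 0.48 (Sparc, with overlap), and whether feeder content was equal was not tested.

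Actin monomers bind ATP and add to the fast-growing end of a filament, where profilin delivers them. Cofilin severs old filaments and releases monomers, cyclase-associated protein helps to recycle these, thymosins hold monomers in reserve, and alpha-actinin ties filaments together. Actb and Actg1 are the cytoplasmic actins found in nearly all cells, whereas Acta2, smooth muscle alpha-actin, is known as a marker of smooth muscle and of activated fibroblasts. Several actin genes are classical targets of serum response factor, which binds the CArG box, and Snail is known to bind the E-box CACCTG.

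RefSeq promoter windows (build GRCm38.p6, 250 bases before to 50 after a transcript start) were at hand for 9 of the 10 genes, all but Actb, as 11 windows. They were searched on both strands for CACCTG, which reads CAGGTG on the other strand and is held by 20.2% of all 32851 windows. The CArG box was searched as CCWWWWWWGG, with W for A or T, a pattern held by 1.63%. Sequences that depart from this pattern were not counted, such as ccctatatgg in the window of Acta2, which departs from it at 1 letter. No window of the 10 genes held both, and a match is a description of letters only. CACCTG was found in 1 of the 3 windows of Tmsb10, with its first base 138 bases before the transcript start of that window. The starts of the other Tmsb10 windows lie upstream of this match, so it is downstream of them. The CArG box pattern was found in the window of Actg1, 90 bases before the start. The windows of Tmsb10 and Actg1 are shown with these matches in capitals, beside those of Pfn1 and Cfl1, which hold neither. They were picked because Pfn1, Cfl1 and Tmsb10 have the probe sets with the largest differences. Actg1 has the only exact match to the CArG box pattern.
Tmsb10, chr6:72958183-72958482, minus strand: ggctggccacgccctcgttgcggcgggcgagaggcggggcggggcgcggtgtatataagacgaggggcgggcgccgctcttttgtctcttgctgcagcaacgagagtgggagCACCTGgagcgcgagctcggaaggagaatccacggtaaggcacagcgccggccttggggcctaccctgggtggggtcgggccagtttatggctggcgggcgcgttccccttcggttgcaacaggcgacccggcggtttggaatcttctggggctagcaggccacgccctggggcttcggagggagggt
Pfn1, chr11:70654601-70654900, minus strand: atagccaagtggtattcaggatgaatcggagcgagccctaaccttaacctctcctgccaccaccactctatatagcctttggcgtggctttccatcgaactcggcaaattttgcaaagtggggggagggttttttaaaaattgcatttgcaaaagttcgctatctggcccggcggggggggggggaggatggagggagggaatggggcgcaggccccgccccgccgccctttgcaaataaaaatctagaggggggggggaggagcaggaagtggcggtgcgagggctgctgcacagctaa
Cfl1, chr19:5490205-5490504, plus strand: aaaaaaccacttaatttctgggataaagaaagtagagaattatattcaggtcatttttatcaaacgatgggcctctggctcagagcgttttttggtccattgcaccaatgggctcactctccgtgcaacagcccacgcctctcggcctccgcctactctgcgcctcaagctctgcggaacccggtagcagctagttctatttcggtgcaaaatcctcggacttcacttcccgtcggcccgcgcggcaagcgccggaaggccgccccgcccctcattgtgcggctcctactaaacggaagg
Actg1, chr11:120348446-120348745, minus strand: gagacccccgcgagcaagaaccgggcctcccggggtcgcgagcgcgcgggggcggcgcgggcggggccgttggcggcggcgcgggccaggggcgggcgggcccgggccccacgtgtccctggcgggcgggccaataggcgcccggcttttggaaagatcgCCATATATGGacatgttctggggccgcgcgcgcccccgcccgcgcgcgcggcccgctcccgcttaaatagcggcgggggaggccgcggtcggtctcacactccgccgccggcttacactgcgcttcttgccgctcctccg

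Over the family, levels above the Bacillus range were found at 21 of the 25 probe sets, and the other 4 (2 of Acta2, 1 of Cfl2 and 1 of Tmsb10) lay within it on all arrays. The knockout arrays both lay above both control arrays at 11 probe sets, against 23.5% of all probe sets, and both lay below at 5, against 26.0% of all. In the limma fit over all 45037 probe sets, 3 of the 25 passed an adjusted p of 0.05 as higher (1 each of Pfn1, Cfl1 and Tmsb10), against 0.440% of all, and 0 as lower, against 0.107% of all. At an unadjusted p under 0.05 there were 6 higher and 4 lower, against 8.34% and 11.2% of all. In the limma fit over genes, which takes the brightest probe set of each, 2 of the 10 passed, Pfn1 as higher (1.98% of all genes) and Pfn2 as lower (2.17% of all genes), and the brightest probe sets of Cfl1 and Tmsb10 are other ones than those counted above. Nothing is read from these counts, since the genes were chosen with this contrast known. The 3 became 2 without control replicate 1 (those of Cfl1 and Tmsb10), and 0 when any of the other arrays was left out. The median difference was 0.12 over the 25 probe sets and -0.01 over all probe sets. By the brightest probe set of each gene it was -0.06 over the 10 genes and -0.02 over all genes.

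**Figure D1:**
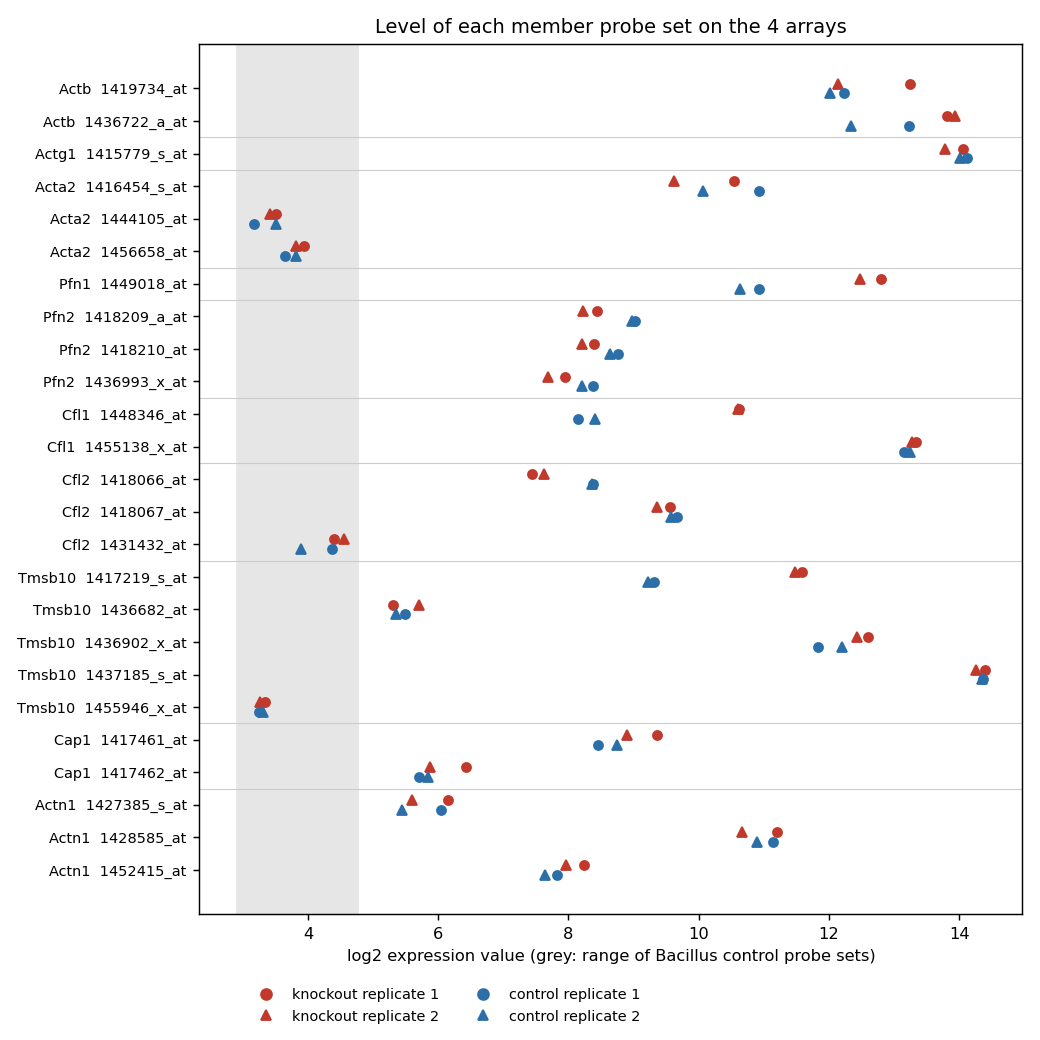
Log2 expression value (horizontal axis) of the 25 probe sets of the 10 genes on the 4 arrays, with knockout in red, control in blue, circles for replicate 1 and triangles for replicate 2. The grey band is the range of 27 Bacillus control probe sets, 2.91 to 4.77, and the groups lie far apart at Pfn1 and at single probe sets of Cfl1 and Tmsb10.

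Among the actins, Actb was higher in the knockout, Actg1 differed little and Acta2 followed the replicate number more than the group. The brightest Actb probe set, 1436722_a_at, was at levels of 13.81 and 13.93 (knockout) against 13.23 and 12.34 (control), a log2 difference of 1.09 ± 0.28 (limma SE). The groups did not overlap there, although the control arrays stood 0.89 apart. The other probe set, 1419734_at, was at 13.25 and 12.14 (knockout) against 12.23 and 12.01 (control). Knockout replicate 1 was alone in being high, the groups overlapped, and the log2 difference was 0.57 ± 0.35 (SE). With single arrays left out, the difference at the brightest Actb probe set ranged from 0.64 (without control replicate 2) to 1.53 (without control replicate 1).

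The Affymetrix control probe sets for Actb, which sit at the 5' end, in the middle and at the 3' end of the transcript, differed between the groups by an amount that depended on their place. The 5' probe set was at 12.84 and 13.22 (knockout) against 10.61 and 9.93 (control), a log2 difference of 2.76. The middle probe set was at 13.27 and 13.52 (knockout) against 12.02 and 11.03 (control), a difference of 1.87. At the 3' end the levels were 13.95 and 14.02 (knockout) against 13.64 and 12.90 (control), a difference of 0.71. All 3 thus kept the knockout above the control, and the size fell toward the 3' end. Within each array the 3' level exceeded the 5' level by 1.11 and 0.80 (knockout) against 3.02 and 2.97 (control).

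The gap was present in both parts of the transcript. The 3' level exceeded the middle level by 0.59 ± 0.13 in the knockout and 1.75 ± 0.18 in the control, and the middle exceeded the 5' level by 0.37 ± 0.08 and 1.25 ± 0.21 (SD, n = 2 each). Gapdh, whose control probe sets are placed likewise, differed by 1.70 at the 5' end, 1.32 in the middle and 0.67 at the 3' end. The part of RNA quality in the differences of Actb, of Gapdh or of the other genes was not tested. Only the control probe sets of Actb and Gapdh were read by their place along the transcript.

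**Figure D2:**
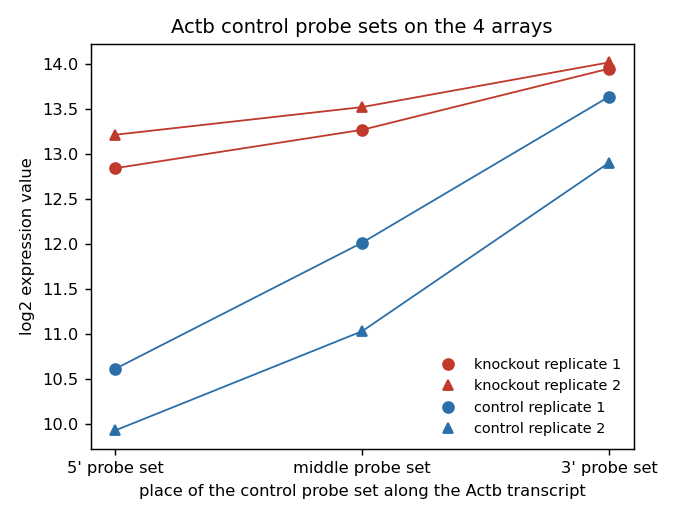
Log2 expression value (vertical axis) of the 3 Actb control probe sets, from the 5' end to the 3' end of the transcript, with a line for each of the 4 arrays (knockout red, control blue, circles replicate 1, triangles replicate 2). The groups are 2.76 apart at the 5' end and 0.71 apart at the 3' end.

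Actg1, the other cytoplasmic actin, has a single probe set, 1415779_s_at, a suffix that marks probes shared by several transcripts. It was at 14.06 and 13.78 (knockout) against 14.11 and 14.01 (control), a log2 difference of -0.14 ± 0.15 (SE). The groups overlapped and the difference was no larger than its error. Actins are close relatives, so the share of this signal that came from other actin transcripts is uncertain. The highest value of any probe set on the arrays was 14.78.

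Acta2 was represented by 1416454_s_at, whose suffix also marks shared probes, at 10.55 and 9.63 (knockout) against 10.92 and 10.06 (control). Replicate 1 was higher than replicate 2 by 0.92 (knockout) and 0.86 (control), and the log2 difference between the groups was -0.40 ± 0.38 (SE), with overlap. Leaving out an array moved this difference between -0.86 and 0.06, and it was above 0 without control replicate 1 (0.02) and without knockout replicate 2 (0.06). The feeder fibroblast markers had the same order, with 20 of 23 higher in replicate 1 of the knockout and 22 of 23 higher in replicate 1 of the control. By the brightest probe set, Actg1, Pfn1, Pfn2, Cfl2, Tmsb10 and Actn1 also had this order. Actb did not in the knockout, and Cfl1 and Cap1 did not in the control. The share of all genes with this order was not counted. In such bulk samples fewer cells of a type and less RNA per cell cannot be told apart, and the part of feeder cells in the Acta2 signal was not tested. The other 2 Acta2 probe sets lay between 3.17 and 3.95, within the Bacillus range.

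**Figure D3:**
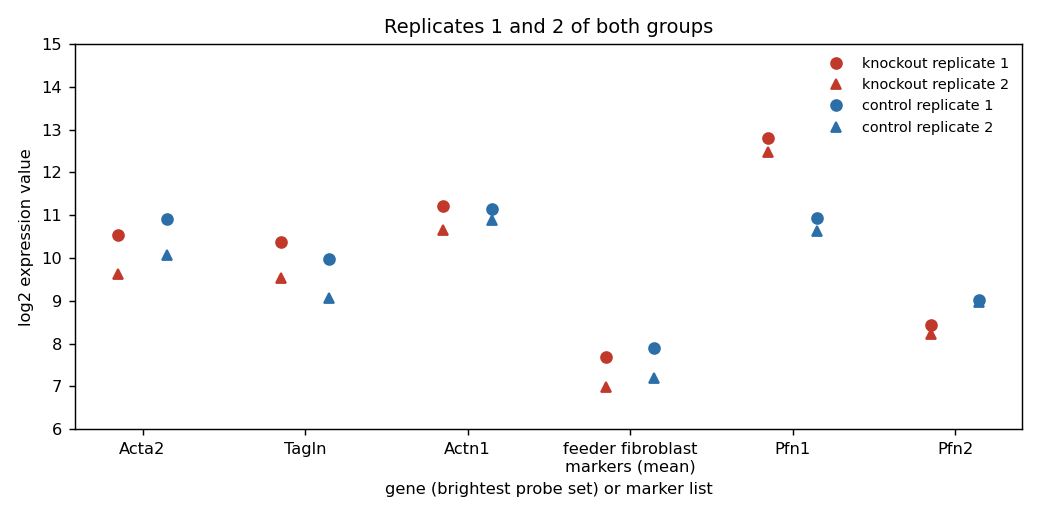
Log2 expression value (vertical axis) of Acta2, Tagln, Actn1, Pfn1 and Pfn2 (brightest probe set each) and the mean of 23 feeder fibroblast markers, by array (knockout red, control blue, circles replicate 1, triangles replicate 2). In every gene drawn and in the marker mean replicate 1 lies above replicate 2 in both groups. Not drawn are Actb, Cfl1 and Cap1, where replicate 2 is the higher at the brightest probe set in the knockout (Actb) or the control (Cfl1, Cap1). In Pfn1 and Pfn2 the groups are further apart than the replicates.

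The profilins went apart. Pfn1, which brings ATP-bound monomers to growing filament ends, was at 12.81 and 12.47 (knockout) against 10.93 and 10.64 (control) at its only probe set, 1449018_at. The lowest knockout array lay 1.55 above the highest control array, while arrays of a group lay 0.33 (knockout) and 0.29 (control) apart. This was a log2 difference of 1.86 ± 0.18 (SE), or 3.63-fold. With each array left out in turn the difference stayed between 1.69 and 2.02.

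Pfn2, the form best known from neurons, was lower in the knockout at all 3 of its probe sets. At the brightest, 1418209_a_at, it was at 8.45 and 8.23 (knockout) against 9.02 and 8.98 (control), a log2 difference of -0.66 ± 0.14 (SE), or 1.58-fold lower. At 1418210_at the levels were 8.39 and 8.20 (knockout) against 8.75 and 8.63 (control), a difference of -0.40. At 1436993_x_at they were 7.95 and 7.69 (knockout) against 8.38 and 8.20 (control), a difference of -0.47. The groups did not overlap at any of the 3, and the differences of these probe sets lay within 0.26 of each other.

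For Cfl1, the main cofilin of non-muscle cells, the answer depended on the probe set. At 1448346_at it was at 10.61 and 10.60 (knockout) against 8.15 and 8.41 (control), a log2 difference of 2.33 ± 0.14 (SE), or 5.04-fold, with the groups clear of each other. At the brighter 1455138_x_at, whose suffix marks probes alike to other sequences, it was at 13.34 and 13.27 (knockout) against 13.16 and 13.25 (control). There the groups also did not overlap, but by 0.02 only, and the difference was 0.10 ± 0.13 (SE).

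Cfl2, the cofilin of muscle, was lower in the knockout at both probe sets above background, by unequal amounts. At 1418066_at it was at 7.43 and 7.63 (knockout) against 8.37 and 8.36 (control), a log2 difference of -0.84 ± 0.13 (SE), or 1.79-fold lower. At the brighter 1418067_at it was at 9.56 and 9.36 (knockout) against 9.67 and 9.58 (control), a difference of -0.16 ± 0.14 (SE). These groups were only just apart, by 0.02. The remaining probe set, 1431432_at, lay between 3.90 and 4.55, within the Bacillus range.

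Tmsb10, the thymosin that sequesters monomers, gave the widest range of any member. At 1417219_s_at, whose suffix marks probes shared by several transcripts, it was at 11.58 and 11.47 (knockout) against 9.32 and 9.22 (control). This was a log2 difference of 2.26 ± 0.13 (SE), or 4.78-fold. At 1436902_x_at it was at 12.60 and 12.44 (knockout) against 11.84 and 12.19 (control), a difference of 0.50 ± 0.16 (SE). At both of these the groups did not overlap. The brightest, 1437185_s_at, was at 14.40 and 14.26 (knockout) against 14.37 and 14.35 (control), a difference of -0.03 ± 0.13 (SE), with overlap. At 1436682_at, between 5.31 and 5.70, the difference was 0.08, and 1455946_x_at lay within the Bacillus range.

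The distance between probe sets of the same gene was set beside that of other genes. Among 3534 genes with at least 2 probe sets at a mean of 6 or more, the median distance between the highest and lowest difference was 0.45. It was 2.29 for Tmsb10, a distance reached by 1.53% of these genes, and 2.24 for Cfl1, reached by 1.78%. It was 0.26 for Pfn2, 0.68 for Cfl2, 0.51 for Actb and 0.46 for Actn1. Among the 25 probe sets, the 4 with a mean of 13 or more over the arrays had differences of 1.09 (Actb), -0.14 (Actg1), 0.10 (Cfl1) and -0.03 (Tmsb10).

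**Figure D4:**
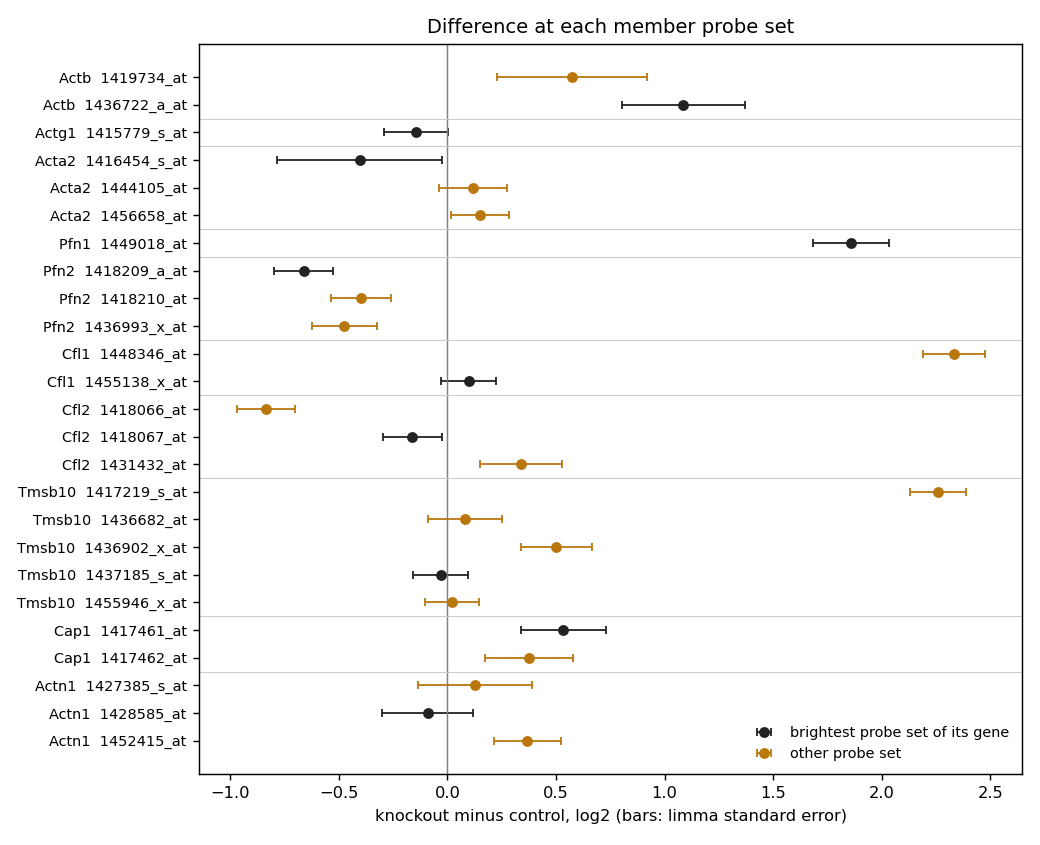
Knockout minus control difference on the log2 scale (horizontal axis) at each of the 25 probe sets, with bars for the limma standard error, black for the brightest probe set of a gene and orange for the others. The probe sets of Cfl1 and Tmsb10 reach from near 0 to above 2, while the 3 of Pfn2 lie together below 0.

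Cap1, which recycles monomers together with cofilin, was modestly higher in the knockout at both probe sets. At 1417461_at it was at 9.36 and 8.90 (knockout) against 8.46 and 8.74 (control), a log2 difference of 0.53 ± 0.20 (SE). At 1417462_at it was at 6.43 and 5.88 (knockout) against 5.71 and 5.85 (control), a difference of 0.38 ± 0.20 (SE). In both cases the groups did not overlap, but knockout replicate 2 lay closer to the control arrays than to its own replicate.

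Actn1, the non-muscle alpha-actinin, differed little. Its brightest probe set, 1428585_at, was at 11.21 and 10.66 (knockout) against 11.15 and 10.90 (control), a log2 difference of -0.09 ± 0.21 (SE), with overlap, and with single arrays left out it ranged from -0.36 to 0.18. At 1452415_at it was at 8.23 and 7.96 (knockout) against 7.83 and 7.64 (control), a difference of 0.37 ± 0.15 (SE), without overlap. At 1427385_s_at it was at 6.15 and 5.60 (knockout) against 6.05 and 5.45 (control), a difference of 0.13 ± 0.26 (SE), with overlap. Replicate 1 was above replicate 2 in both groups at all 3, the order seen in the feeder markers, whose part was not tested. The order was not particular to Actn1, since Actg1, Pfn1 and all 3 probe sets of Pfn2 had it too. So did the brightest probe sets of Cfl2 and Tmsb10.

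Other genes with the most similar course over the 4 arrays were found by the Euclidean distance between log2 profiles centred on their means, among 9474 genes outside the family at a mean of 6 or more. Nearest to Actb were Garem1 (distance 0.09), Gigyf1 (0.13) and Smarcc1 (0.14). Nearest to Pfn1 were Cox6b2 (0.12), Mdk (0.17) and Mlf2 (0.26), and nearest to Acta2 were Vasn (0.12), Bgn (0.13) and Thbd (0.14).

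To place the family among other genes of the actin machinery, 95 measured genes in 8 lists were read from the limma fit over all 18193 genes, each by its brightest probe set. Of these 95, 4 rose (Myl9, Flna, Capg and Coro1b), against 1.98% of all genes, and 1 fell (Rock1), against 2.17%. All 5 fell below the threshold when any single array was left out. The median difference was -0.08 over the 95 genes and -0.02 over all genes, and at an unadjusted p under 0.05 there were 12 higher and 16 lower of the 95, against 9.06% and 14.9% of all genes, shares that also stand beside the unadjusted counts of each list. Of the 5 calls, 3 were not past the threshold in the fit over all probe sets (Flna with a limma adjusted p of 0.0618, Coro1b with 0.0651 and Rock1 with 0.0691). The Actb 3' minus 5' gap, larger in the control by 2.04, separated the same groups, and its part in these differences was not tested.

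Among 16 tropomyosin, myosin and calponin genes, Myl9, a regulatory light chain of myosin II, rose and none fell, with 4 higher and 1 lower at an unadjusted p under 0.05. Myl9 was at 8.71 and 8.72 (knockout) against 7.58 and 7.50 (control), a log2 difference of 1.17 ± 0.13 (SE, limma adjusted p = 0.0186). Both knockout arrays were far above both control arrays. The list's median difference was 0.09. Tagln, the smooth muscle protein transgelin, was at 10.37 and 9.54 (knockout) against 9.97 and 9.06 (control) (adjusted p = 0.511), with replicate 1 the higher in both groups as for Acta2.

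Among 16 crosslinkers and membrane linkers Flna, the filamin that joins filaments at angles, rose and none fell, with 3 higher and 0 lower at an unadjusted p under 0.05. Flna was at 9.76 and 9.28 (knockout) against 8.32 and 8.48 (control), a log2 difference of 1.12 ± 0.19 (SE, limma adjusted p = 0.0352). The list's median difference was -0.03. Among 11 capping and severing genes Capg, which caps fast-growing ends, rose and none fell, with 1 higher and 2 lower unadjusted. Capg was at 8.29 and 8.41 (knockout) against 7.40 and 7.42 (control), a difference of 0.94 ± 0.13 (SE, limma adjusted p = 0.0286), and the median of its list was -0.08.

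Among 9 genes of monomer binding and turnover, Coro1b, a coronin that acts on branched networks, rose and none fell, with 1 higher and 3 lower unadjusted. Coro1b was at 8.75 and 8.65 (knockout) against 7.78 and 8.04 (control), a log2 difference of 0.79 ± 0.15 (SE, limma adjusted p = 0.0425, and 0.0552 with an intensity trend, which ends the call). Tmsb4x, the close relative of Tmsb10, was at 13.39 and 13.40 (knockout) against 13.40 and 13.32 (control), a difference of 0.04 ± 0.13 (SE) that was -0.01 after a further quantile normalization and below 0 without control replicate 2. Dstn, the third member of the cofilin family, was at 12.81 and 12.65 (knockout) against 13.05 and 13.11 (control), without overlap, and its difference of -0.35 ± 0.14 (SE) did not pass (limma adjusted p = 0.171).

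Rock1, the kinase that activates myosin and, through LIM kinase, inhibits cofilin, was the gene that fell. It was at 9.58 and 9.51 (knockout) against 10.31 and 10.16 (control), a log2 difference of -0.68 ± 0.14 (SE, limma adjusted p = 0.0453, and 0.0554 with an intensity trend, which ends the call). Of its other bright probe sets, 1423445_at differed by -0.75 and 1423444_at by 0.87, the latter from levels of 9.25 and 9.91 (knockout) against 9.32 and 8.09 (control), which overlap. The mean of all Rock1 probe sets differed by 0.27, in the opposite direction. This mean takes in the dimmer 1460729_at and 1441162_at, which differed by 1.94 and -0.03. At 1460729_at the levels were 5.68 and 6.43 (knockout) against 5.27 and 2.97 (control), the last within the Bacillus range. Srf itself differed by 0.04 ± 0.14 (SE) at its brightest probe set and by 0.58 at its other, and the former was -0.04 without knockout replicate 1.

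Among 13 genes of the Arp2/3 complex, which nucleates branched filaments, and its activators, 0 passed the limma test, with 1 higher and 4 lower at an unadjusted p under 0.05. Both knockout arrays lay below both control arrays for 11 of the 13, beside 35 of all 95 other actin genes and 29.2% of all genes by their brightest probe set, while 1 of the 13 lay above (23.1% of all genes), and the median difference was -0.33. The largest difference was in the opposite direction, that of the subunit gene Arpc4, at 9.64 and 9.08 (knockout) against 8.54 and 8.79 (control) (limma adjusted p = 0.0951). Among 10 formin, Ena/VASP and Spire genes, which nucleate or extend straight filaments, 0 passed the limma test, with 0 higher and 3 lower unadjusted and a median of -0.32. The formin Daam1 was at 7.89 and 7.39 (knockout) against 8.34 and 8.21 (control) (limma adjusted p = 0.0916).

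Among 5 other actins and actin-related genes 0 passed the limma test, with 2 higher and 0 lower unadjusted and a median difference of 0.39. Actc1, cardiac alpha-actin, was at 6.08 and 5.66 (knockout) against 5.26 and 5.17 (control) (limma adjusted p = 0.0718), so that the groups did not overlap but lay close to the Bacillus range.

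**Figure D5:**
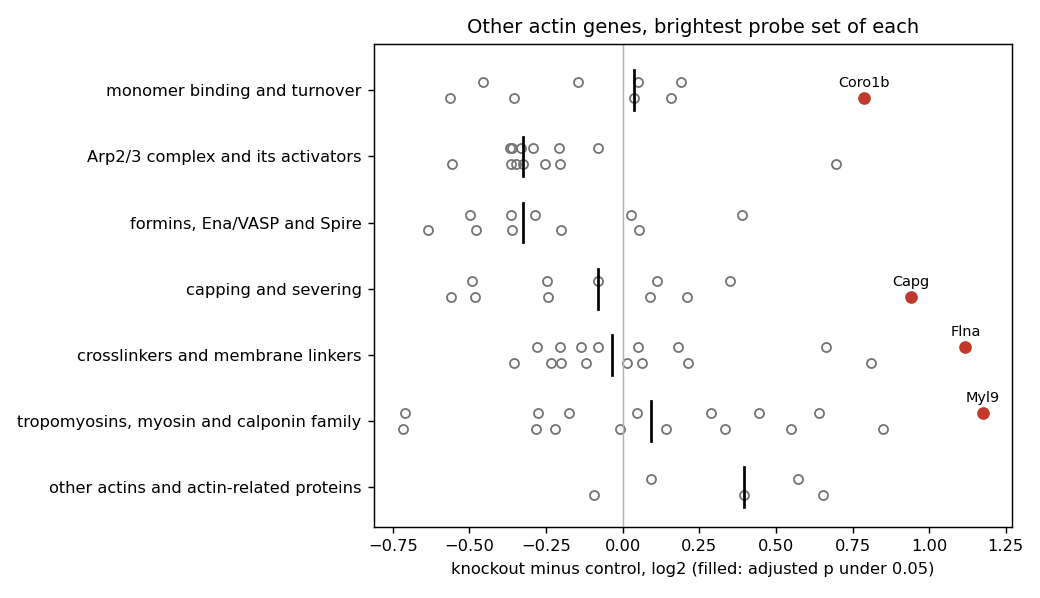
Knockout minus control difference on the log2 scale (horizontal axis) of 80 other actin genes in 7 of the lists, with filled red points for an adjusted p under 0.05 and a vertical bar at each list's median. Myl9, Flna, Capg and Coro1b lie to the right, and the medians of the Arp2/3 and formin lists lie near -0.33.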

How the data were processed

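Per the submitters' processing notes, the values were made with RMA and limma, with no version or order given; the deposited values are log2 expression values per probe set (2.56 to 14.78), which were used as deposited. The array medians lay between 4.91 and 4.95. RMA sets the arrays' distributions equal, so a shift shared by most genes would not show. Of the genome build: not given in the sources used here.

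Probe sets were named by GEO's platform annotation: 34958 had 1 gene symbol, 932 several and 9211 none, and 64 controls were set aside. The 2 groups were set against each other by lmFit and eBayes of limma 3.58.1 under R 4.3.3, without covariates, once over all 45037 probe sets and once over the brightest probe set of each of 18193 genes, with two-sided p-values, Benjamini-Hochberg adjustment and a threshold of 0.05. The fit was tested on simulated data. Of 105 list genes 10 had no probe set of their own here and were not analysed here.

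The 10 genes and the lists were chosen with earlier results of these data known. The text names, per list, up to 2 genes past the threshold with the largest change or else the largest difference, besides Tmsb4x, Dstn, Tagln and Srf; the counts of 1 list are not reported here. Alternatives were other normalizations, error models, a filter on dim probe sets, averaging probe sets, leaving out probe sets open to cross-hybridisation, a block on the replicate number, and the omission of single arrays.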

Additional observations from a re-analysis of the deposited data

How the results depend on the processing

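With 2 arrays per group, the counts of calls depended on every array. For the other actin genes, the 4 higher and 1 lower became 0 and 0 with any single array left out (lone arrays assumed to vary like the other pair), with 7 to 20 higher and 6 to 23 lower at an unadjusted limma p under 0.05. For the member probe sets, the 3 higher became 0 to 2. The lower count of other actin genes became 0 with an intensity trend in eBayes, 0 with a gene's probe sets averaged and 3 with only means of 6 or more (Rock1, and Gmfb and Tpm2, named after their values were seen). Averaging also moved Cfl1 from 0.10 to 1.22 and Tmsb10 from -0.03 to 0.57, Rock1 from -0.68 to 0.27, Acta2 from -0.40 to -0.05, Actn1 from -0.09 to 0.13, Srf from 0.04 to 0.31 and Daam1 from -0.64 to -0.35; this setting takes in dimmer probe sets. Tmsb4x became -0.0093 after a further quantile normalization, and with single arrays left out it ranged from -0.0017 to 0.076, Tagln from -0.011 to 0.90 and Srf from -0.043 to 0.12. With the replicate block the other actin genes gave 13 higher and 13 lower, and the member probe sets 1 lower (Cfl2, 1418066_at) beside the same number higher, and Tagln, Arpc4, Daam1 and Actc1 came under the threshold (limma adjusted p = 0.0495, 0.0217, 0.0139 and 0.0119). The replicate numbers are shared names only, and deviations of same-numbered arrays correlated at 0.29 over 18193 genes, which are not independent replicates. The cause of the other changes was not tested. The Actb 3' minus 5' gap difference of 2.04 ranged from 1.89 to 2.19. Under a further quantile normalization, median centring and robust eBayes every count stayed within 1.5 times its value.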
